A study of Mus musculus with 10 samples.

Results

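The genes described here encode proteins of sperm and of the spermatids that form them: Prm1, Tnp1, Tnp2, Smcp, Oaz3, Crisp2 and Fabp9. They were picked by name, as the rows of the authors' deposited table whose gene symbol is exactly 1 of these 7. The names were chosen with earlier results of these data known, so their counts and ranks describe the falls and test nothing. Each had 1 transcript cluster (the probes of a gene, summarised to 1 signal). They are 7 of 20174 genes tested. RNA was measured on 10 Affymetrix Mouse Gene 1.0 ST arrays, 2 in each of 5 groups. At 0 weeks the RNA came from testis cells of adult DBA/2 mice, purified on magnets through CD9, a membrane protein that spermatogonial stem cells carry. At 1, 2 and 3 weeks it came from CD9-sorted cells kept for that long in modified Iscove medium, to which 1% fetal bovine serum, rat GDNF (15 ng/ml) and human FGF2 (10 ng/ml) were added. The last group held GS (germline stem) cells, established DBA/2 cultures of spermatogonial stem cells, in the same medium. The labels name no genetic change. Nothing says that the 2 samples of a group had different animals or cultures as their source, and the spread behind every p may be technical only.

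In the last phase of spermatogenesis, haploid spermatids condense their chromatin: transition proteins displace most histones and are themselves replaced by protamines, small arginine-rich proteins that pack sperm DNA. At the same time the acrosome, the mitochondrial sheath and the tail are assembled. The genes for these proteins are transcribed in spermatids, and some already in late spermatocytes, and many of their mRNAs are stored before translation. Spermatogonial stem cells stand at the start of the lineage, long before this step.

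All 7 genes were high in the sorted cells and fell within the first week of culture. At 1 week against 0 weeks, 7 of 7 were called lower (limma adjusted p under 0.05), against 27.5% of all genes tested. The members were chosen with earlier results known, so this count is a description. Their median log2 change was -5.18, against -0.04 over all genes. Fitted changes ran from -6.59 for Fabp9 to -4.01 for Tnp1, which is 96.5-fold and 16.1-fold. No member was called higher, against 30.3% of all genes. None returned later: 7 of 7 were lower than at 0 weeks in the 2 week group, where 21.3% of all genes were called lower and 25.4% higher, in the 3 week group (23.9% lower and 30.1% higher) and in GS cells (20.4% lower and 30.8% higher). These 4 comparisons share the 0 week arrays.

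**Figure D1:**
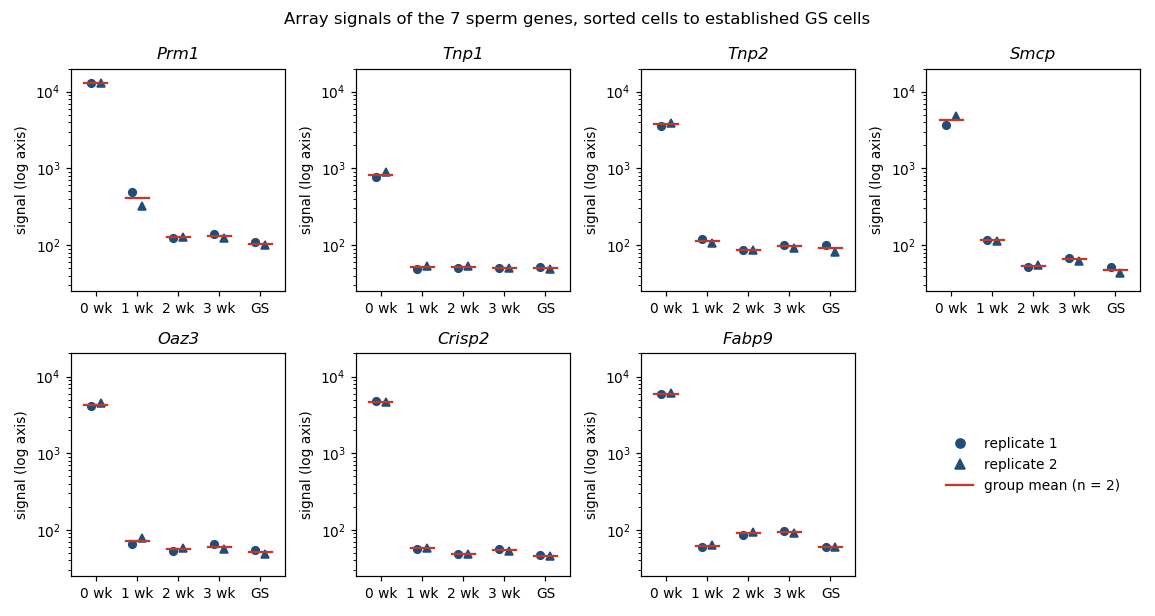
Signal of each gene on every array (log axis), in the order 0, 1, 2 and 3 weeks of culture and established GS cells; circles and triangles are replicates 1 and 2, and red lines are group means of 2 arrays. For every gene both 0 week arrays lie above all 8 cultured arrays. The 1 week arrays of Prm1 (495 and 320.4) and Smcp (118 and 115) stand above the later ones. Those of Tnp2 (121 and 106) and Oaz3 (66.3 and 78.9) do so by less.

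The 0 week arrays also carried signal of genes used as markers of cell types other than stem cells. Markers of round spermatids, 8 in all with the acrosome gene Acrv1, summed to 5211 to 5702 on the 0 week arrays. On the cultured arrays they summed to 480 to 601. At 1 week 8 of 8 were called lower, where 27.5% of all genes were called lower and 30.3% higher. The same shares stand beside the other marker counts of that week. The 10 markers of undifferentiated spermatogonia summed to 2370 to 2471 at 0 weeks, 3128 to 3242 at 1 week, 8267 to 8301 at 2 weeks, 7442 to 7475 at 3 weeks and 9073 to 9224 in GS cells. At 1 week against 0 weeks only 3 of these 10 were called higher (Gfra1, Ret and Etv5) and 7 did not pass, with a median log2 change of -0.03. The 7 markers of fibroblasts and mesenchyme summed to 5581 to 6476 at 0 weeks and 23452 to 23595 at 1 week, and to 1965 to 6689 in the later groups. Summed signals of the marker lists that follow were also lower at 1 week than at 0 weeks. The 7 of meiotic prophase summed to 5712 to 5966 at 0 weeks, 847 to 869 at 1 week and 2030 to 2707 later, and 7 of 7 were called lower at 1 week. The 5 of Leydig cells, which make testosterone, summed to 6347 to 6361 at 0 weeks, 498 to 537 at 1 week and 278 to 344 later, and 5 of 5 were called lower. The 7 of Sertoli cells, the nurse cells of the tubule, summed to 2783 to 2802 at 0 weeks, 1326 to 1334 at 1 week and 857 to 1174 later, with 4 lower, 1 higher and 2 not passing. The 6 of macrophages summed to 896 to 940.5 at 0 weeks, 595 to 622 at 1 week and 592 to 745 later, with 4 lower, 1 higher and 1 not passing. Some sums rest largely on 1 bright gene. At 0 weeks and 1 week, Cyp17a1 of the Leydig list measured 4992 and 71.3. Clu of the Sertoli list measured 1527 and 333, and Fcgr3 of the macrophage list 354 and 73.9. Sox9 of the Sertoli list (213 and 428) and Cd68 of the macrophage list (207 and 276) rose. Dcn of the fibroblast list measured 4132 at 0 weeks and 8203 at 1 week. In the later groups Dcn and Pdgfra were called lower than at 0 weeks, Lum and Col1a1 higher, and the rest of that list varied. Within the meiotic list, Sycp1 measured 742, 134 and 914 at 0, 1 and 2 weeks, and Piwil1 1905, 96.4 and 124. In bulk RNA, fewer cells of a type and less RNA per cell cannot be told apart, so the falls of the sperm genes are given beside these sums, and the part of cell composition in them was not tested.

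The files give no background level. Genes of olfactory and vomeronasal receptors, 1208 in all, served as a yardstick for dim signals; most are known from sensory neurons, although some olfactory receptors are also known from germ cells. Their median signal was 47.7 to 78.8 per array and their 95th percentile 102 to 213. On the 0 week arrays every sperm gene lay above that percentile. At 1 week Prm1, Tnp2 and Smcp were above it on both arrays and the other 4 on neither, and from 2 weeks on no gene was above it on any array. Tnp2 (121 and 106) and Smcp (118 and 115) were only a little above it at 1 week. Both were below the 99th percentile of the receptor genes (163 and 156), which Prm1 passed. Where a gene was not above the 95th percentile, its fitted change rests on a signal that cannot be told from dim background. With each array's 95th percentile in place of any dimmer signal, the falls at 1 week were at least 7.65-fold for Tnp1, 39.9-fold for Oaz3, 43.8-fold for Crisp2 and 55.4-fold for Fabp9.

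Prm1, Tnp1 and Tnp2 make the proteins of the condensing nucleus. In the RefSeq gene table (GRCm38.p6), Tnp2, Prm3, Prm2 and Prm1 lie next to each other on chromosome 16, and Tnp1 lies on chromosome 1. The transcription factor CREM, active in spermatids, is known to bind cyclic AMP response elements (CRE) in such promoters. The 160 bases before the start site of these 3 genes, which fell together, are shown for that reason (RefSeq, GRCm38.p6, written 5′ to 3′ on the gene's strand). Capitals mark a match to the CRE TGACGTCA with at most 1 mismatch.
Prm1, chr16:10796824-10796983, minus strand: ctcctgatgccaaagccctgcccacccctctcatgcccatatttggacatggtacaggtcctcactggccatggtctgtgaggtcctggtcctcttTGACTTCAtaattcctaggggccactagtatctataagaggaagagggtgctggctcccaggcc
Tnp1, chr1:73015900-73016059, minus strand: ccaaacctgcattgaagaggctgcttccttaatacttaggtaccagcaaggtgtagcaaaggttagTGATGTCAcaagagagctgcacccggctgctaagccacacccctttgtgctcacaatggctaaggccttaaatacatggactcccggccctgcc
Tnp2, chr16:10788656-10788815, minus strand: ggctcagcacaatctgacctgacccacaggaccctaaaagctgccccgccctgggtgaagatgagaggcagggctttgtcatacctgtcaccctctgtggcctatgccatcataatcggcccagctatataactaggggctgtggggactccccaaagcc
The match was TGACTTCA from -64 to -57 in Prm1 and TGATGTCA from -94 to -87 in Tnp1, counted back from -1 at the base before the start. In Tnp2, and in the same window of Smcp and Crisp2, these letters were not found. Both strands were searched, and 8.43% of 32851 promoter windows of this length hold such a match. The unbroken CRE TGACGTCA (1.39% of windows) and its core TGACG (13.8%), which overlaps it, were in none of the 5 promoters. The letters TATAAA (8.01% of windows) were found only in Crisp2, from -97 to -92 and, on the other strand, from -118 to -113. These matches describe letters, not binding. Oaz3 and Fabp9 had no entry among the promoter sequences.

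Prm1 encodes protamine 1, the main sperm DNA packing protein. Its signals were 13034 and 12946 at 0 weeks, 495 and 320.4 at 1 week, 125 and 129 at 2 weeks, 141 and 123 at 3 weeks, and 109.8 and 98.8 in GS cells. The 0 week arrays were at the 99.96th percentile of all clusters, and no other group overlapped them. At 1 week the log2 change against 0 weeks was -5.03 ± 0.17 (SE, n = 2 arrays a group, adjusted p = 2.6e-09), a 32.6-fold fall. Both 1 week arrays were above the 99th percentile of the receptor genes (163 and 156). The fitted changes against 0 weeks were -6.68 at 2 weeks, -6.63 at 3 weeks and -6.96 in GS cells, on arrays where Prm1 was not above the 95th percentile of the receptor genes. With that percentile as a floor the falls were at least 84.9-fold, 62.1-fold and 111-fold. In each of these 3 comparisons Prm1 had the lowest change of all 20174 genes, both in the fitted signals and with the floor under every gene.

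Tnp1 encodes transition protein 1. It measured 763 and 886 at 0 weeks, 49.2 and 53.2 at 1 week, 49.6 and 54.1 at 2 weeks, 50.7 and 50.04 at 3 weeks, and 51.8 and 48.2 in GS cells. Its cultured arrays overlapped each other entirely and lay at the 10.2nd to 19.9th percentile of their arrays. Its change at 1 week against 0 weeks was -4.01 ± 0.09 (adjusted p = 2.1e-10), and the later groups stayed at the same dim signal. Tnp2, the gene of transition protein 2, measured 3600.4 and 3878 at 0 weeks, 121 and 106 at 1 week, 87.2 and 86.0 at 2 weeks, 99.99 and 92.1 at 3 weeks, and 101 and 80.2 in GS cells. Its 1 week change was -5.04 ± 0.11 (adjusted p = 2.1e-10), and the cultured arrays lay near the middle or lower part of their arrays.

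Smcp encodes a cysteine-rich protein of the mitochondrial capsule in the sperm midpiece. It measured 3704.5 and 4811 at 0 weeks, 118 and 115 at 1 week, 52.3 and 55.7 at 2 weeks, 68.5 and 61.6 at 3 weeks, and 51.6 and 43.2 in GS cells. The 2 sorted samples differed more for this gene than for the others, but both were far above all cultured arrays. The change at 1 week was -5.18 ± 0.13 (adjusted p = 3.7e-10), a 36.3-fold fall.

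Oaz3 encodes the antizyme of the germ line; antizymes bind ornithine decarboxylase, the first enzyme of polyamine synthesis, and direct it to degradation. Oaz3 measured 4124 and 4465 at 0 weeks, 66.3 and 78.9 at 1 week, 53.3 and 59.0 at 2 weeks, 65.1 and 56.4 at 3 weeks, and 54.1 and 48.6 in GS cells. The 0 week arrays stood apart, and the other groups lay within a narrow band. At 1 week the change was -5.89 ± 0.11 (adjusted p = 8.0e-11), a 59.3-fold fall.

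Crisp2 encodes a cysteine-rich secretory protein of the acrosome and tail, and Fabp9 a fatty acid binding protein of the perforatorium, a structure under the acrosome. Crisp2 measured 4758 and 4660.2 at 0 weeks, 55.7 and 59.1 at 1 week, 48.8 and 48.5 at 2 weeks, 56.4 and 53.6 at 3 weeks, and 46.7 and 46.0 in GS cells. Fabp9 measured 5884 and 6025 at 0 weeks, 59.6 and 63.8 at 1 week, 86.4 and 95.1 at 2 weeks, 96.5 and 90.8 at 3 weeks, and 60.54 and 60.53 in GS cells. For both genes the 0 week arrays were far above the rest, but Fabp9 was higher at 2 and 3 weeks than at 1 week and in GS cells, while Crisp2 stayed low throughout. Their 1 week changes, -6.36 ± 0.06 and -6.59 ± 0.07 (adjusted p = 1.9e-11 and 2.2e-11), rest on 1 week signals not above the receptor percentile, and with the floor the falls were at least 43.8-fold and 55.4-fold.

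**Figure D2:**
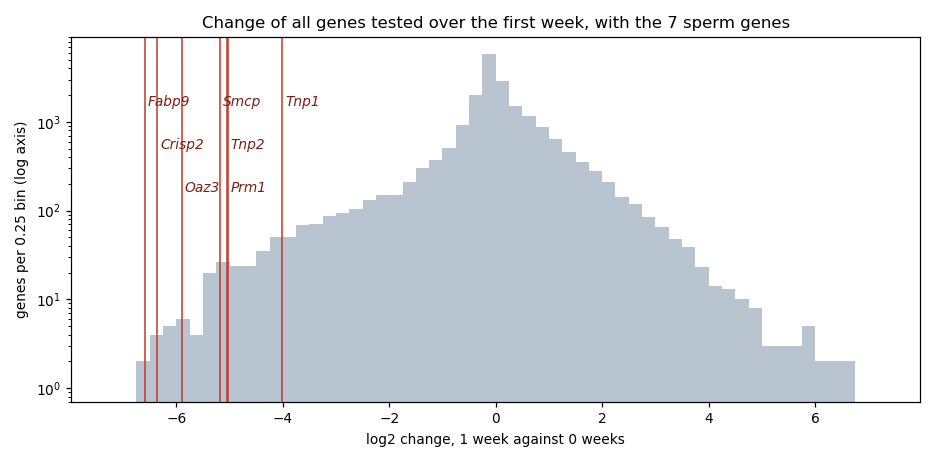
Distribution of log2 changes at 1 week against 0 weeks over all 20174 genes (grey bars, number of genes per bin on a log axis), with the 7 sperm genes as red lines. They lie between -6.59 and -4.01, at the left end of the distribution.

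The authors' deposited table compares 3 weeks with 0 weeks by a ratio of group means. In the authors' deposited table, Prm1 had the lowest ratio of all 28856 clusters, 0.0101, from means of 132 at 3 weeks and 12989.9 at 0 weeks. Crisp2 ranked 3rd from the lowest (0.0117), Oaz3 8th (0.0141), Smcp 10th (0.0154), Fabp9 11th (0.0157), Tnp2 31st (0.0257) and Tnp1 187th (0.0612) in the authors' deposited table.

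In the second week of culture the genes parted. At 2 weeks against 1 week, 5 of 7 were called lower, 1 was called higher and 1 did not pass, where 25.2% of all genes were called lower and 25.6% higher. Prm1 fell again, by 1.65 ± 0.17 on the log2 scale (adjusted p = 1.8e-05), to 127 ± 2.57 (SD, n = 2) at 2 weeks, against 408 ± 124 at 1 week. Smcp fell by 1.11 ± 0.13 (adjusted p = 4.7e-05), to 54.0 ± 2.41 at 2 weeks, against 116 ± 2.41 at 1 week. Both lay above the 95th percentile of the receptor genes at 1 week and below it at 2 weeks. Prm1 was also above their 99th percentile at 1 week, and Smcp was not. The receptor genes went the other way in this comparison, with a median log2 change of 0.31.

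Smaller falls passed for Tnp2 (-0.39 ± 0.11, adjusted p = 0.017), Oaz3 (-0.37 ± 0.11, adjusted p = 0.019) and Crisp2 (-0.24 ± 0.06, adjusted p = 0.012). Each of these 3 calls ended when 1 array was left out: Tnp2 without replicate 1 of 1 week or either 2 week replicate, Oaz3 without replicate 2 of 1 week or replicate 1 of 2 weeks, Crisp2 without replicate 2 of 1 week or either 2 week replicate. Without replicate 1 of 2 weeks the number of members called lower was 2, and without replicate 2 of 1 week or of 2 weeks it was 3. Fabp9 rose, to 90.7 ± 6.13 at 2 weeks against 61.7 ± 3.00 at 1 week (0.56 ± 0.07, adjusted p = 1.3e-04). That rise lies inside the range of most receptor genes in the same comparison (5th to 95th percentile, 0.04 to 0.83). Tnp1 did not pass (0.02 ± 0.09, adjusted p = 0.88). With the receptor percentile as a floor under each signal, Prm1 was the only gene still called lower (-1.38), and the other 6 took the rise of the floor.

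**Figure D3:**
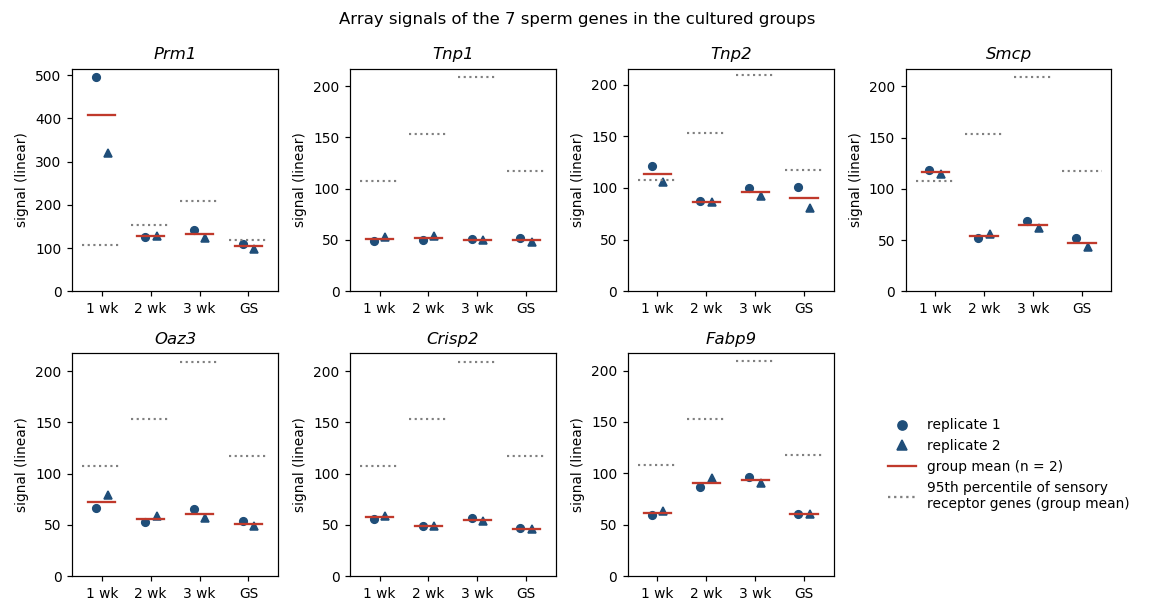
Signals of the 7 genes on the 8 cultured arrays (linear axes with separate scales, 1, 2 and 3 weeks and established GS cells), with group means of 2 arrays in red and, dotted, the mean over the same 2 arrays of the 95th percentile of 1208 sensory receptor genes. The means of Prm1, Smcp and Tnp2 lie above the dotted line at 1 week, and no mean does later; Fabp9 is highest at 2 and 3 weeks.

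Between 2 and 3 weeks nothing in the group passed: 0 of 7 were called at 3 weeks against 2 weeks by limma, and 0 of 7 in any fit with an array left out, where 16.5% of all genes were called lower and 7.71% higher. The largest difference was that of Smcp (65.1 ± 4.85 at 3 weeks against 54.0 ± 2.41 at 2 weeks, 0.27 ± 0.13, adjusted p = 0.16), and the smallest unadjusted p was that of Crisp2 (0.18 ± 0.06, unadjusted p = 0.023, adjusted p = 0.079). The receptor genes had a median change of 0.29 in the same comparison. At an unadjusted p under 0.05, 1 of 7 passed (Crisp2), but the share of all genes at that threshold was not counted, so nothing is read from it. With the receptor percentile as a floor under each signal 7 of 7 were called higher, which is the change of the floor itself.

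Established GS cells were lower than the 3 week cultures for 3 of 7 genes, none was higher and 4 did not pass, where 17.2% of all genes were called lower and 29.9% higher. Fabp9 fell by 0.63 ± 0.07 (adjusted p = 1.1e-04), to 60.5 ± 0.00543 in GS cells against 93.7 ± 4.03 at 3 weeks. Smcp fell by 0.46 ± 0.13 (adjusted p = 0.015), to 47.4 ± 5.93 against 65.1 ± 4.85, and Crisp2 by 0.25 ± 0.06 (adjusted p = 0.012), to 46.3 ± 0.522 against 55.0 ± 1.95. In the same comparison 82.4% of the receptor genes were called lower, with a median of -0.49 and a 5th to 95th percentile of -1.15 to -0.08. The 3 falls lie inside that range, and whether they are more than a shift of all dim signals was not tested. Without replicate 1 of 3 weeks the count was 1 of 7, with only Fabp9 called, and the call of Smcp also ended without replicate 2 of the GS cells. Quantile normalization, which also ended the calls of Smcp and Crisp2, left 1, cyclic loess gave 6, and the receptor percentile as a floor gave 7.

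Seen per gene, the order of levels was 0 weeks, 1 week and then the later groups for Prm1, with 2 and 3 weeks not separated. Smcp had the same order in the signals as deposited, but its step at 2 weeks did not hold with the receptor floor. For Tnp1 the 4 cultured groups were not separated in any of the 3 steps tested. For Tnp2, Oaz3 and Crisp2 the step at 1 week held in every alternative, while those at 2 weeks ended without single arrays and turned with the floor, so no order among their cultured groups is given. Fabp9 was lowest at 1 week and in GS cells, which were not tested against each other, and all its cultured signals were under the receptor percentile. Across all 10 arrays the pairwise Pearson r between log2 signals of the 7 genes was 0.95 to 0.9991, and across the 8 cultured arrays -0.40 to 0.96. These r describe genes measured on the same arrays, and the first is dominated by the step between sorted and cultured cells.

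Other genes of spermiogenesis were followed in lists written from general knowledge, but with earlier results of these data known. In the list of nuclear condensation, 8 of 9 measured genes fell at 1 week against 0 weeks and 1 did not pass (median -1.46, against -0.04 over all genes). Over all genes, 27.5% were called lower and 30.3% higher in that comparison. The testis-specific linker histone genes Hils1 and H1f7 measured 115 and 128 at 1 week, against 613 and 601 at 0 weeks (-2.43 ± 0.11 and -2.23 ± 0.11). Brdt, a reader of acetylated histones needed for their removal, changed by -2.48 ± 0.09 and Chd5, a chromatin remodeller of spermatids, by -1.59 ± 0.09. Prm3, which lies between Tnp2 and Prm2, measured 115 at 1 week against 194 at 0 weeks (-0.76 ± 0.11, adjusted p = 2.2e-04). Rnf8, a ubiquitin ligase of DNA damage signalling, did not pass (0.12 ± 0.12). Prm2 had no cluster of its own among the genes tested. A cluster named for both Prm2 and Wdr19 was left out, because only clusters with 1 symbol were tested. Its ratio of 3 weeks over 0 weeks in the authors' deposited table was 0.0123, 5th from the lowest of 28856 clusters. Which of these genes gave that signal was not tested.

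Of the sperm tail and midpiece list, 30 of 31 measured genes fell at 1 week and 1 did not pass (median -3.97). The largest falls were in Ldhc, the lactate dehydrogenase of germ cells (-6.03 ± 0.09), Meig1 (-5.49 ± 0.08), Gapdhs, the glycolytic enzyme of the sperm tail (-5.26 ± 0.14), and Akap4, the main protein of the fibrous sheath (-5.22 ± 0.09). Odf1, of the outer dense fibres, measured 115 at 1 week against 3960.1 at 0 weeks (-5.10 ± 0.08). Tekt2, a microtubule protein of the axoneme, did not pass (-0.44 ± 0.18, adjusted p = 0.059). Of the acrosome list 13 of 14 fell and 1 rose (median -3.08). Beside the counts of both lists stand 27.5% of all genes called lower and 30.3% called higher at 1 week. Acrv1 (-5.20 ± 0.08), the zona binding protein gene Zpbp2 (-5.14 ± 0.07) and Acr, the gene of acrosin (-4.89 ± 0.09), fell the most, and Gopc, a Golgi protein of many cells, rose (0.53 ± 0.07). Both lists were written with earlier results of these data known. They also share genes with the round spermatid markers, so the counts overlap. Shared were Acrv1, Spaca1, Zpbp and Izumo1 of the acrosome list and Catsper3 of the tail list.

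**Figure D4:**
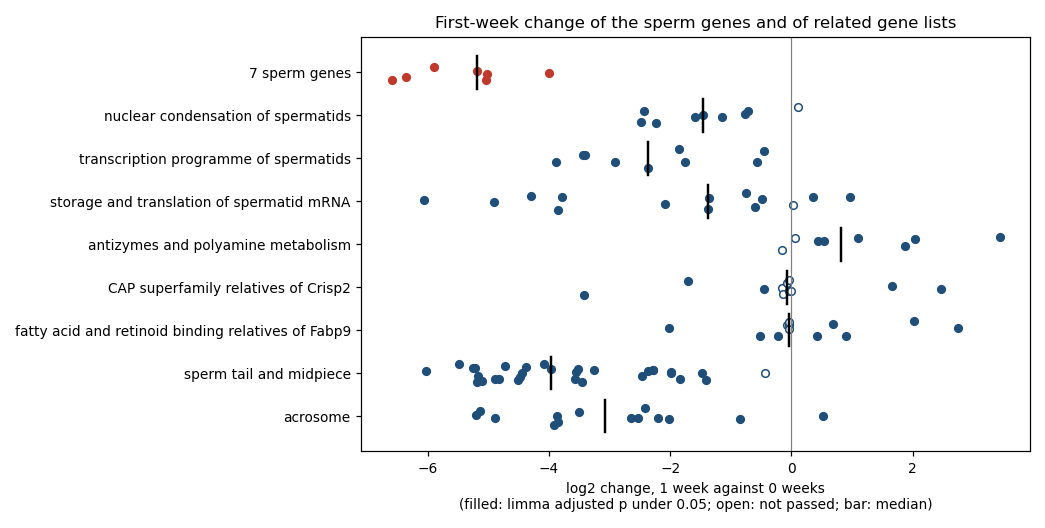
Log2 change at 1 week against 0 weeks (x axis) of the 7 sperm genes (red) and of each measured member of 8 related gene lists (blue, 1 row a list); filled points passed limma at an adjusted p under 0.05, open points did not, and black bars are medians. The tail and acrosome lists have medians of -3.97 and -3.08, and the lists of relatives of Crisp2 and Fabp9 medians near 0.

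The counts for relatives by sequence stand beside 27.5% of all genes called lower and 30.3% called higher at 1 week against 0 weeks, and nothing particular to these lists is read from them. Of 11 measured relatives of Crisp2 in the CAP superfamily, 3 fell, 2 rose and 6 did not pass at 1 week against 0 weeks (median -0.08). Crisp1, Crisp3 and Crisp4, best known from epididymis and glands, measured 42.5, 34.2 and 36.4 at 1 week, against 45.0, 35.0 and 37.5 at 0 weeks, and none passed. Glipr1l1, a relative found on sperm, fell by 3.42 ± 0.09, and Pi15 rose by 2.46 ± 0.08. Of 12 measured relatives of Fabp9, 3 fell, 5 rose and 4 did not pass (median -0.04). Fabp12, its neighbour in the family, measured 53.6 at 1 week against 76.8 at 0 weeks (-0.52 ± 0.10, adjusted p = 0.0012), and Fabp3, the heart form, changed by -2.02 ± 0.10. The retinoic acid binding genes Crabp1 and Crabp2 rose by 2.74 ± 0.10 and 2.03 ± 0.16.

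Of the genes of polyamine metabolism around Oaz3, 6 of 8 measured rose, 0 fell and 2 did not pass at 1 week against 0 weeks (median 0.82), where 30.3% of all genes were called higher and 27.5% lower. Sat1, which acetylates polyamines for breakdown and export, measured 1389 at 1 week against 131 at 0 weeks (3.44 ± 0.25), and Srm, spermidine synthase, 1951 against 475 (2.04 ± 0.07). Odc1, the enzyme that antizymes bind, rose to 1555 at 1 week against 725 at 0 weeks (1.10 ± 0.10), and was lower than at 0 weeks at 3 weeks (-1.52) and in GS cells (-0.58). These rises came in the week in which fibroblast markers peaked, whose part was not tested. Oaz1 and Oaz2, the antizymes of most tissues, had no cluster of their own among the genes tested.

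The genes with the most similar pattern were ranked by Pearson r over the 10 arrays to the mean log2 signal of the 7, among 2529 other genes with a mean log2 signal above 9 at 0 weeks. The 6 highest were 1110017D15Rik, 1700009N14Rik, 4933411K16Rik, Otub2, Lelp1 and Iqcf3, with r of 0.9989 to 0.9995. Their mean signals were 66.9 to 144 at 1 week, against 1378 to 3042 at 0 weeks. Because a single large step dominates, 273 candidates had r above 0.99, so the order among them says little. The closest single partner was 1700086L19Rik for Prm1 (0.9959), Spata4 for Tnp1 (0.9997), 4933411K16Rik for Tnp2 (0.9996), Fam71f2 for Smcp (0.9988), Fam71e2 for Oaz3 (0.9994), Adam5 for Crisp2 (0.9997) and Ankar for Fabp9 (0.9988). Prm1 and Smcp had fewer candidates above 0.99 (14 and 34) than the other 5 genes (294 to 350), and these 2 genes also had the largest falls of the 7 in the second week. Over the whole arrays, replicates correlated at 0.991 to 0.998 and arrays of different groups at 0.707 to 0.984, and the median signal per array was 112 to 125.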

How the data were processed

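RNA was measured on 10 Affymetrix MoGene-1_0-st-v1 arrays, whose annotation (na32, mm9) is named in the file headers. TRIzol and RNeasy extraction and the WT Terminal Labeling kit (biotin) are given per the labels' protocols. The deposited values are linear intensity signals, 1 per transcript cluster and array. The authors' deposited table adds group mean intensities for 0 and 3 weeks and their ratio. How the arrays were scanned, background-corrected, summarised and normalised is not given in the sources used here.

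Signals were taken as log2. Of 28856 clusters, 22439 carried 1 symbol and entered the tests. Symbols were updated through the RefSeq table (GRCm38.p6, names only), and the brightest cluster per gene was kept, which left 20174 genes. Group means of all 5 groups were fitted by lmFit and eBayes of limma 3.58.1 (R 4.3.3), with Benjamini-Hochberg adjustment over all genes, and every p in the text is from that fit. SE is its posterior standard error; the fit had 5 residual and 4.39 prior degrees of freedom. The number of arrays limits the precision.

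Members and lists were chosen with earlier results of these data known. From the lists, up to 4 genes that passed with the largest changes were named per list and comparison, and fixed relatives whatever they did. Genes named beyond that rule (Odf1, Rnf8, Tekt2, Gopc, Crem, Taf7l, Dazl, Pabpc1, Cpeb1, Dazap1) were chosen after their values were seen, for their role or as the exception of their list. Alternatives were quantile and cyclic loess normalization, a filter on dim genes, means of clusters, a trended robust eBayes, a replicate block, a floor at the receptor percentile, and leaving out each array. The code was tested on simulated data.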

Additional observations from a re-analysis of the deposited data

How the results depend on the processing

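The 7 falls against 0 weeks, at 1, 2 and 3 weeks and in GS cells, were called in every one of 17 alternatives (476 of 476 values). For 2 of these alternatives that says little. The filter on dim genes kept all 7, which their 2 bright 0 week arrays ensured. Means of clusters left the signals of these genes unchanged, since each had 1 cluster. What changed lay among the dim signals of the cultured groups, where 2 arrays a group and the missing background level limit what can be told apart. At 2 weeks against 1 week, 5 members were called lower, with a range of 2 to 5 over fits without 1 array. With the receptor floor 1 was lower and 6 were higher, and Tnp2 (0.43), Smcp (0.40), Oaz3 (0.51) and Crisp2 (0.51) reversed. At 3 weeks against 2 weeks, 7 were called higher with that floor, where Tnp1 reversed (0.45), and in GS cells against 3 weeks 7 were called lower. These follow from the floor's construction, since a raised signal carries the change of the floor itself. In GS cells against 3 weeks, 3 members were called lower, with 1 under quantile normalization, 6 under cyclic loess and 1 to 4 without 1 array; the cause was not tested. Scaling also moved the share of higher calls among all genes: at 3 weeks against 2 weeks it was 31.9%, and 49.5% with quantile normalization and 54.8% with cyclic loess; in GS cells against 3 weeks 63.5%, 48.2% and 50.2%. With cyclic loess it was 41.0% in place of 54.4% at 2 weeks against 0 weeks, and 44.8% in place of 60.2% in GS cells against 0 weeks. Same-numbered samples deviated together among 0 weeks, 1 week, 3 weeks and GS cells (r 0.31 to 0.58) but not with 2 weeks (-0.07 to -0.02), and no label says what a number shares, so the numbers were not taken as pairs. With the replicate block 5 members were lower at 2 weeks against 1 week, and no call of a member changed; the genes called at 3 weeks against 2 weeks were 6695 with the block and 4875 without it.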

Other observations

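Of 9 measured genes that control transcription in spermatids, 9 fell at 1 week against 0 weeks (median -2.37, against -0.04 over all genes). Against 0 weeks, 7 were lower, 1 higher and 1 did not pass at 2 weeks and likewise at 3 weeks, and 8 were lower and 1 higher in GS cells. Of all genes, 27.5% were called lower and 30.3% higher at 1 week, and 21.3% and 25.4% at 2 weeks. The shares were 23.9% and 30.1% at 3 weeks, and 20.4% and 30.8% in GS cells. Crem, the transcription factor of the spermatid programme, measured 96.6 at 1 week against 499.7 at 0 weeks (-2.37 ± 0.07). Its coactivator gene Fhl5 changed by -3.43 ± 0.08, Gtf2a1l, a germ cell form of a general transcription factor, by -3.88 ± 0.09, and Sox30 by -3.40 ± 0.08. Taf7l, a germ cell subunit of TFIID also known from spermatogonia, fell at 1 week (-0.57 ± 0.13) and was higher than at 0 weeks at 2 weeks (1.92), at 3 weeks (2.02) and in GS cells (1.87).

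Of 14 genes for the storage and translation of germ cell mRNA, 11 fell, 2 rose and 1 did not pass at 1 week against 0 weeks (median -1.37). Against 0 weeks, 10 were lower and 3 higher at 2 weeks and in GS cells, and 11 were lower and 3 higher at 3 weeks. Over the comparisons against 0 weeks, 20.4% to 27.5% of all genes were called lower and 25.4% to 30.8% higher. Pabpc2, a testis form of poly(A) binding protein, changed by -6.07 ± 0.09, while Pabpc1, the general form, changed by -0.48 ± 0.06. Ybx2, which binds stored mRNAs including that of protamine 1, measured 154 at 1 week against 4643 at 0 weeks (-4.91 ± 0.10), and Piwil1 96.4 against 1905 (-4.31 ± 0.07). Piwil1 is also among the meiotic prophase markers. Boll fell by 3.85 ± 0.17. Dazl, an RNA-binding protein of germ cells from the spermatogonia on, fell at 1 week (-0.76) and was higher than at 0 weeks at 2 weeks (1.56), at 3 weeks (1.15) and in GS cells (1.21). Cpeb1 rose at 1 week (0.97 ± 0.07), and Dazap1 did not pass (0.03 ± 0.06).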
